A study of Mus musculus with 12 samples.

Results

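Cassette exons are exons that a cell keeps in some copies of an mRNA and skips in others. The exons described here were the cassette exons whose length is a multiple of 3 bases, so that their skipping leaves the downstream reading frame unchanged, and that were neither nearly always kept nor nearly always skipped. They were chosen by a measured value, the mean inclusion in refed wild type liver, which had to lie between 0.1 and 0.9. Inclusion is the share of the included form after the reads of each form are divided by the length over which they can map. A further condition was at least 10 reads over both forms in each of the 12 libraries and an exon length of 28 to 300 bases. Of 34416 skipped-exon events listed with the same coordinates for the fasted and the refed comparison, 28447 met the read minimum, and 1264 of these were alternative and kept the frame. The 1264 events covered 1170 different exons in 903 genes, because 70 exons stood in 2 events and 12 exons in 3 events that differ in a flanking exon and share reads.

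RNA was sequenced from liver of male BALB/cByJ mice aged 2 to 8 months, with 3 libraries in each of 4 groups. Lpin1-/- mice carry the fld (fatty liver dystrophy) mutation in every tissue, and their Lpin1+/+ littermates are called wild type. Fasted wild type and fasted Lpin1-/- mice went 16 hours without food, and refed wild type and refed Lpin1-/- mice were given food for 5 hours after the same fast. Lpin1 encodes lipin 1, a phosphatidate phosphatase of lipid synthesis that also acts as a transcriptional coactivator.

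Lpin1 RPKM (reads scaled to gene length and library size) was 22, 0.726 and 1.76 in fasted and 2.92, 0.784 and 2.76 in refed wild type liver, against 0.0368 to 0.0597 in fasted and 0.00573 to 0.0238 in refed Lpin1-/- liver, and was lower in every Lpin1-/- library than in any wild type library. The median member had 68 to 188 reads a library. The 6 hepatocyte marker genes summed to 33898 to 77429 RPKM across the libraries. Summed over 8 genes, Kupffer cell and macrophage markers lay at 188 to 381 RPKM in fasted wild type, 360 to 981 in fasted Lpin1-/-, 104 to 895 in refed wild type and 114 to 266 in refed Lpin1-/- liver. The 6 stellate cell and fibroblast markers summed to 65.9 to 154 RPKM in fasted wild type and 194 to 285 in fasted Lpin1-/- liver. In single libraries the 5 cholangiocyte markers reached 451 RPKM (fasted Lpin1-/-, 24.9 at the lowest) and the 5 lymphocyte markers 21.5 RPKM (refed wild type, 1 at the lowest). None of the markers was at 0 in a whole group. The part of these cells in the inclusion values was not tested. Fasted and refed mice were killed at different times of day, and the feeding state cannot be told apart from the hour. In bulk liver, a shift in which cells are present and a shift in splicing within cells cannot be told apart.

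Whether a cassette exon is kept depends on the strength of its splice sites and on RNA-binding proteins that sit on the exon or the introns beside it. SR proteins mostly favour inclusion, hnRNPs such as PTBP1 often oppose it, and factors of the ESRP, MBNL and RBFOX families act on either side according to where they bind. An exon that keeps the frame can add or remove a stretch of protein without disturbing the rest, whereas an exon that holds a stop codon (a poison exon) ends the reading frame and exposes the mRNA to nonsense-mediated decay, a route by which many splicing factors limit their own level.

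The sequences below, read from the GENCODE M21 transcripts of the GRCm38 genome, show coding exons on which the results below turn. They are written on the strand of the gene, and capitals mark the bases at either end that complete a codon begun or finished in a neighbouring exon. An exon without capitals starts and ends between codons. None of the exons printed holds a stop codon in the annotated frame.
Rif1, chr2:52116668-52116745, plus strand, 78 bases: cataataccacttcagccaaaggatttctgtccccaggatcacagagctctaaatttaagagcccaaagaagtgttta
Kdm6a, chrX:18247567-18247722, plus strand, 156 bases: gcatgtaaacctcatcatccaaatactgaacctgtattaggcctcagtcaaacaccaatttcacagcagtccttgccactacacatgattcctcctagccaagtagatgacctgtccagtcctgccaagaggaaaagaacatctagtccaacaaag
Fgfr1op, chr17:8175519-8175578, plus strand, 60 bases: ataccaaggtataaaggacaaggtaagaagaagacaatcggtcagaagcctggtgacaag
Ythdf3, chr3:16203187-16203219, plus strand, 33 bases: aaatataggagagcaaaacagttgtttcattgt
Sorbs2, chr8:45783543-45783626, plus strand, 84 bases: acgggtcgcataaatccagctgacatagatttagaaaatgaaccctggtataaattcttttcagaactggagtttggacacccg
Tle1, chr4:72138962-72139063, minus strand, 102 bases: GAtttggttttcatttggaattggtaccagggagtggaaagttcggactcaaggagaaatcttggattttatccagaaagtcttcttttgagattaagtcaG
Cnot4, chr6:35024128-35024340, minus strand, 213 bases: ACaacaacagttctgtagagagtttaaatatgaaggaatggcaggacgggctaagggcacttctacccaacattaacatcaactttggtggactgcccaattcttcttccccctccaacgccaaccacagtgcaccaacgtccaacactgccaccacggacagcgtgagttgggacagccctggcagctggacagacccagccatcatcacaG
Kansl1, chr11:104368680-104368778, minus strand, 99 bases: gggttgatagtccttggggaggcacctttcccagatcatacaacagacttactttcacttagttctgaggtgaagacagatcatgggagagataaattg
Chka, chr19:3875735-3875788, plus strand, 54 bases: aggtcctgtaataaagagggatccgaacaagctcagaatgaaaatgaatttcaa
Mlx, chr11:101088236-101088325, plus strand, 90 bases: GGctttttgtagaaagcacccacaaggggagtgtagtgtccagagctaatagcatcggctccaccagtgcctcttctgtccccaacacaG
Vegfa, chr17:46022277-46022348, minus strand, 72 bases: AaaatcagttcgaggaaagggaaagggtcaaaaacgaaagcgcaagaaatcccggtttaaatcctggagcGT

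A length divisible by 3 does not make an exon open. Some members altered in fasted Lpin1-/- liver have an exon that GENCODE places in a transcript marked for nonsense-mediated decay and in no protein-coding transcript. In 7 of these the stop codon of such a decay transcript lies inside the exon. The bases leading up to it are shown, at most 30 and none from before the exon, with the stop codon in capitals.
Tra2b, chr16:22259181-22259210, minus strand, 30 bases: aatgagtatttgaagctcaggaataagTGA
Srsf11, chr3:158023310-158023339, minus strand, 30 bases: gttgttcataaaacagcttttgaaagtTGA
Rbm7, chr9:48494364-48494387, minus strand, 24 bases: tatttgaggcagagagccataTAG
Chka, chr19:3881998-3882009, plus strand, 12 bases: tttccactgTAG
Parp16, chr9:65235837-65235859, plus strand, 23 bases: gacagagtctcactatgaagTAG
Trnau1ap, chr4:132325454-132325483, minus strand, 30 bases: agcttacagctgccacacctgggctcaTAG
Fkbp14, chr6:54587078-54587085, minus strand, 8 bases: tatttTAG
The stop codon starts at base 79 of the exon in Tra2b, 48 in Srsf11, 34 in Trnau1ap, 22 in Rbm7, 21 in Parp16, 10 in Chka and 6 in Fkbp14, counted from 1 at the start of the exon.

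The members ranged from 30 to 300 bases, with a median of 105 bases. By length, 204 exons had 60 bases or fewer, 662 had 63 to 150 bases and 304 had more than 150 bases. GENCODE annotated 536 of the 1170 exons (45.8%) as coding throughout, and none of these holds a stop codon in its frame. Among the coding exons, 234 begin at a codon boundary, 83 after 2 bases of a codon (1 base still to come) and 219 after 1 base of a codon (2 bases still to come). A further 92 exons (7.86%) lie in a 5′ UTR, and 54 (4.62%) are partly coding. In decay transcripts but in no protein-coding transcript stand 62 exons (5.3%), called decay-only here. Of these 51 contain the stop codon of a decay transcript, at a median position of base 31. In 11 of the 62 the reading frame ends outside the exon. The remaining 56 annotated exons (4.79%) occur only in other non-coding or retained-intron transcripts. No GENCODE exon has the coordinates of the other 370 (31.6%): 1 end is an annotated exon end in 223, neither end in 143 and both ends, though never of a single exon, in 4. The junction that skips the exon is annotated for 1088 of the 1264 events (86.1%), and both junctions of the included form for 791 (62.6%).

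Refed wild type inclusion, the value that chose the members, lay below 0.3 in 375 events, between 0.3 and 0.7 in 418 and above 0.7 in 471. The members just inside the bounds were D3Ertd751e at 0.1002 and Anks3 at 0.8999. The events just outside were Tbc1d23 at 0.0998 and Agfg1 at 0.9006. The rarer form had a median of 25.3 reads per library over the members, and at least 5 in 1175 of the 1264.

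The first tested comparison asked what the absence of lipin 1 did to these exons in fasted liver. Inclusion was altered in 171 of 1264 members (13.5%), 83 higher and 88 lower in fasted Lpin1-/- liver, at an adjusted p under 0.05 (limma on the log2 ratio of included to skipped reads, Benjamini-Hochberg adjustment over all 28447 events). Over all events tested, 16.4% passed the same threshold, 5.11% higher and 11.3% lower. In this fit the members' share of altered events was therefore near or below that of all exons, with 6.57% higher and 6.96% lower. Regardless of sign, mean inclusion differed by a median of 0.0773 over all members and 0.297 among the 171, beside 0.01 over all events and 0.06 among all that passed. In 164 of the 171 the difference was at least 0.1. At an unadjusted p under 0.05, 342 of 1264 members passed, beside 8644 of all 28447 events. Library numbers are positions in the listing of each group, which carries no replicate number. The count of 171 fell to 98 without the fasted wild type library in list position 3, and rose to 275 with a quasi-binomial fit that weights each library by its reads. Over all events, 10.6% passed without that library. In the quasi-binomial fit 18.1% of all events passed, a smaller share than the 275 of 1264 members.

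**Figure D1:**
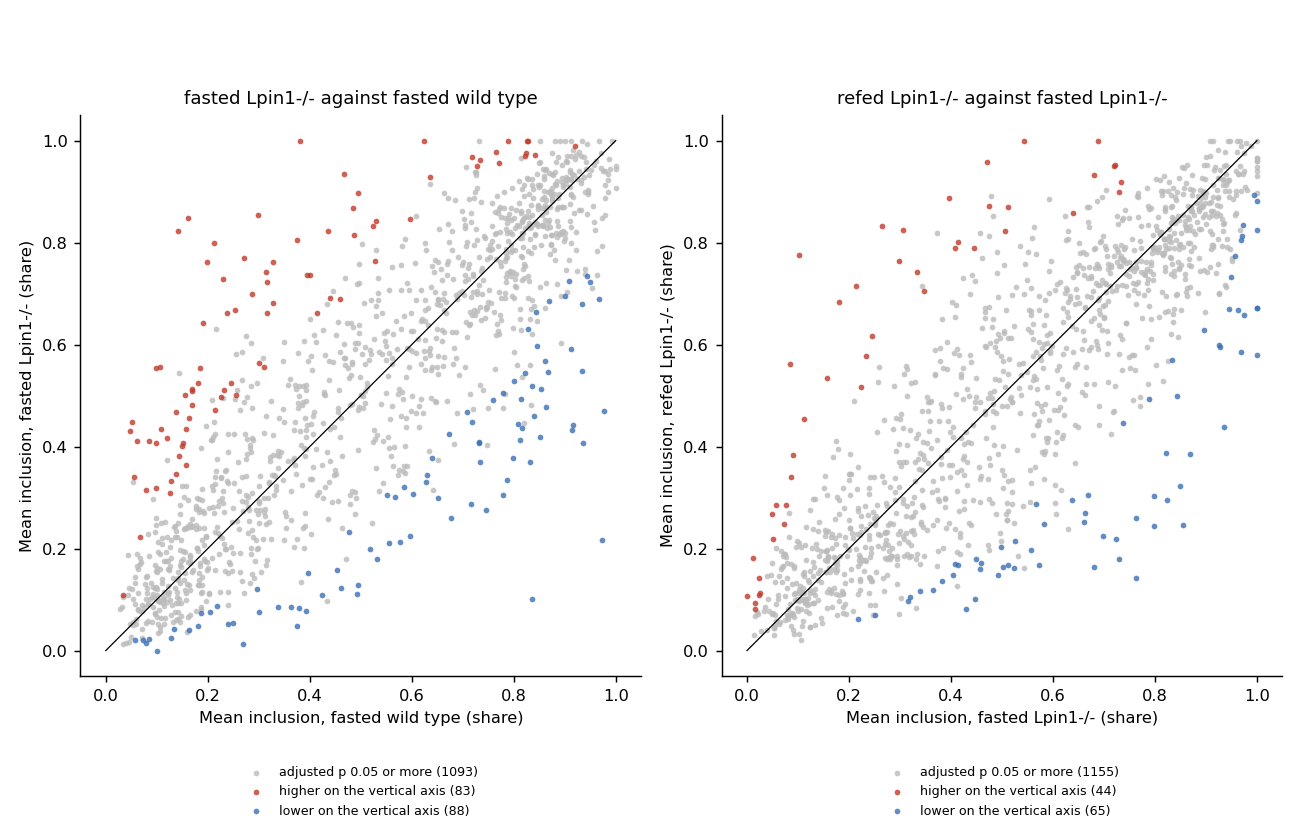
Mean inclusion (share of the included form, 3 libraries a group) of the 1264 members, with fasted Lpin1-/- against fasted wild type on the left and refed against fasted Lpin1-/- on the right. Each point is 1 event, the line marks equal inclusion, and colour marks the events past an adjusted p of 0.05: 83 above and 88 below on the left, 44 above and 65 below on the right.

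For genes with several altered events, the event with the most reads of its rarer form is described, unless another is said to be named after its values were seen. The exon with the largest gain was the 276-base poison exon of Tra2b, which encodes an SR-like activator of splicing (chr16:22258986-22259261, minus strand). Its inclusion was 0.216, 0.153 and 0.117 in the fasted wild type libraries and 0.832, 0.84 and 0.873 in the fasted Lpin1-/- libraries. The groups were far apart, and the log2 ratio of included to skipped reads rose by 4.88 ± 0.45 (SE, limma adjusted p = 7.12e-05). An overlapping version of the same exon, 234 bases long and not in the annotation, went from 0.141 to 0.823 and shares its skipping reads. Srsf11, another SR-related splicing factor, showed the same direction at its 117-base poison exon. Inclusion there was 0.185, 0.338 and 0.165 in fasted wild type and 0.886, 0.742 and 0.558 in fasted Lpin1-/- liver (log2 ratio 3.38 ± 0.64 SE, limma adjusted p = 0.00239). Rbm7, the RNA-binding subunit of a complex that brings RNAs to the nuclear exosome, had 0.261, 0.304 and 0.296 against 0.797, 0.69 and 0.61 at its 105-base poison exon, with 457 to 1133 reads a library. No library of one genotype reached the range of the other, and the log2 ratio rose by 2.57 ± 0.49 (SE, limma adjusted p = 0.00263).

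Of the 56 events whose exon brings in a stop codon in decay transcripts, 5 rose and 2 fell in fasted Lpin1-/- liver, 12.5% against 16.4% of all events. The other 2 that rose, named after their values were seen along with Trnau1ap, were the 123-base exon of Chka and the 105-base exon of Parp16. Chka encodes choline kinase alpha, and its exon went from 0.0522 ± 0.0222 (SD, n = 3) to 0.448 ± 0.26, a wide spread in the fasted Lpin1-/- libraries, which lay at 0.449, 0.708 and 0.188 (limma adjusted p = 0.00514). A second event of the same Chka exon, with another flanking exon, did not pass, at 0.0711 ± 0.0392 against 0.043 ± 0.0191 (limma adjusted p = 0.444). It had 182 to 246 reads a library in fasted Lpin1-/- liver, beside 23 to 39 in the event that rose. The event that rose had 65 included reads there, beside 56 of a 111-base coding version without the stop codon. Both versions have the same skipping reads and share 111 bases, so these values do not separate the form with the stop codon. Parp16, an ADP-ribosyltransferase of the endoplasmic reticulum, went from 0.0616 ± 0.0191 to 0.411 ± 0.0916 (limma adjusted p = 0.00417). The 2 that fell were in Fkbp14, a prolyl isomerase of the endoplasmic reticulum, from 0.746 ± 0.211 to 0.275 ± 0.0867 (limma adjusted p = 0.00749), and in Trnau1ap, a factor of selenocysteine incorporation, from 0.734 ± 0.0487 to 0.369 ± 0.225 (limma adjusted p = 0.0472). The Trnau1ap call was lost without fasted Lpin1-/- position 1 or 2, fasted wild type position 1, 2 or 3, refed Lpin1-/- position 1 or 3 or refed wild type position 2 (limma adjusted p = 0.0548 to 0.195), and with precision weights (limma adjusted p = 0.079). A second event of the Trnau1ap exon did not pass, from 0.543 ± 0.213 to 0.411 ± 0.133 (limma adjusted p = 0.468). Among decay-only exons without the stop codon, the 105-base exon of Hnrnpdl, an hnRNP, had the most reads. Its inclusion was 0.549, 0.468 and 0.466 in fasted wild type and 0.0924, 0.193 and 0.101 in fasted Lpin1-/- liver, with 409 to 1269 reads a library (log2 ratio -2.80 ± 0.48 SE, limma adjusted p = 0.00134).

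**Figure D2:**
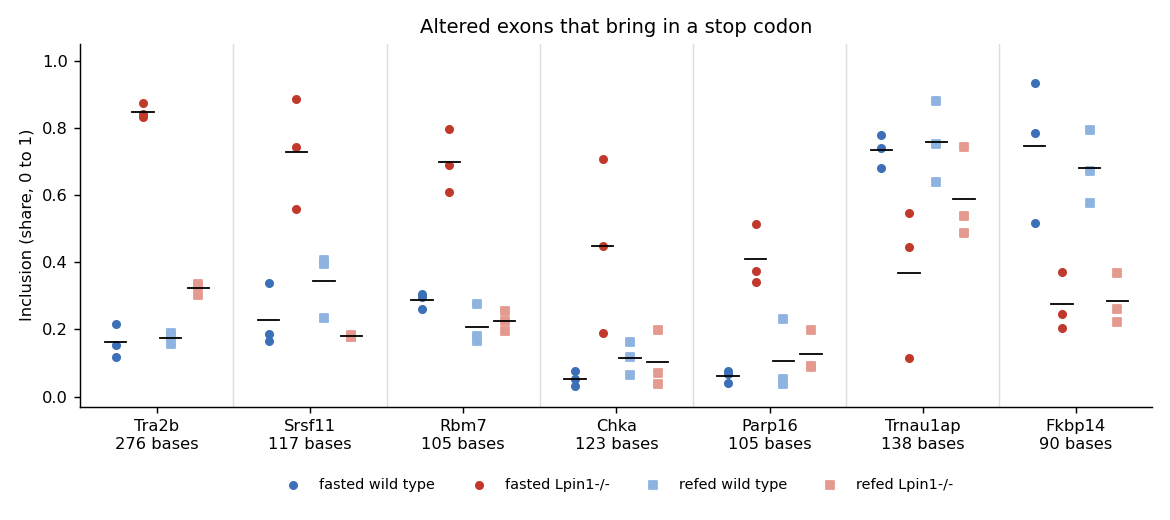
Inclusion (share, vertical axis) of the 7 altered exons that contain a stop codon of a decay transcript, with 1 point per library, 3 libraries a group and a bar at the group mean. Inclusion in fasted Lpin1-/- liver lies above fasted wild type in Tra2b, Srsf11, Rbm7, Chka and Parp16 and below it in Trnau1ap and Fkbp14.

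Coding exons also gained inclusion. Rif1 acts in DNA replication timing and break repair, and its 78-base exon was kept at 0.318, 0.395 and 0.183 in fasted wild type and 1, 0.935 and 0.631 in fasted Lpin1-/- liver (log2 ratio 4.43 ± 0.86 SE, limma adjusted p = 0.00302). Only 17 to 63 reads a library lay behind these values, and the groups did not overlap. The 156-base exon of Kdm6a, a histone H3K27 demethylase on chromosome X, went from 0.508, 0.493 and 0.4 to 1, 0.875 and 0.93 (log2 ratio 3.28 ± 0.50 SE, limma adjusted p = 0.000678). Fgfr1op, a centrosomal protein, nearly always skipped its 60-base exon in fasted wild type liver, at 0.0385, 0.0913 and 0.164. In fasted Lpin1-/- liver the exon was kept at 0.43, 0.52 and 0.711 (log2 ratio 3.67 ± 0.60 SE, limma adjusted p = 0.000973). Ythdf3, a reader of methylated adenosine in mRNA, holds the shortest of these exons, 33 bases. Its inclusion was 0.274, 0.373 and 0.336 against 0.683, 0.841 and 0.763 (log2 ratio 2.71 ± 0.55 SE, limma adjusted p = 0.00378).

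The other gains were outside annotated coding sequence. Baiap2, a scaffold between small GTPases and the actin cytoskeleton, is named after its values were seen. Its 105-base unannotated exon went from 0.252, 0.183 and 0.16 to 0.685, 0.774 and 0.829 (log2 ratio 3.74 ± 0.60 SE, limma adjusted p = 0.000855). A 204-base 5′ UTR exon of Tbp, the TATA-binding protein, went from 0.212 ± 0.108 (SD, n = 3) to 0.799 ± 0.186 (limma adjusted p = 0.00359). A 147-base 5′ UTR exon of Fbxo34, an F-box protein, went from 0.316 ± 0.136 to 0.723 ± 0.0455 (limma adjusted p = 0.00473). Mcfd2, a cofactor in the secretion of clotting factors, gained an 84-base exon that is not in the annotation, from 0.271 ± 0.109 to 0.77 ± 0.125 (limma adjusted p = 0.00478, or 0.0626 with precision weights). Zmynd8, a chromatin reader, had a 231-base unannotated exon at 0.336, 0.385 and 0.423 in fasted wild type liver. In fasted Lpin1-/- liver, 0 of 61 reads over 3 libraries skipped it, which allows a skipping share of up to 4.92% of reads from counting error alone (limma adjusted p = 0.000616, or 0.0539 with precision weights).

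Coding exons with large losses included those of Kansl1, Sorbs2, Tle1 and Cnot4. Kansl1, a subunit of a histone acetyltransferase complex, had a 189-base exon at 0.923, 0.963 and 0.919 in fasted wild type and 0.311, 0.52 and 0.39 in fasted Lpin1-/- liver, far apart (log2 ratio -4.24 ± 0.51 SE, limma adjusted p = 0.000153), and this event is named after its values were seen. Sorbs2 is an adaptor between the actin cytoskeleton and signalling proteins, and its 84-base exon was kept at 0.772, 0.846 and 0.744 in fasted wild type and 0.385, 0.309 and 0.309 in fasted Lpin1-/- liver (log2 ratio -2.85 ± 0.50 SE, limma adjusted p = 0.00162). The Sorbs2 event had only 10 to 14 reads a library in fasted Lpin1-/- liver. There the gene lay at 0.722 ± 0.207 RPKM (SD, n = 3), against 6.03 ± 5.08 RPKM in fasted wild type liver (limma adjusted p = 0.0138). Tle1, a transcriptional corepressor, had its 102-base exon at 0.576, 0.793 and 0.783 against 0.189, 0.34 and 0.335 (log2 ratio -2.72 ± 0.56 SE, limma adjusted p = 0.00428). In both genes the lowest wild type library lay well above the highest Lpin1-/- library. Cnot4 is a ubiquitin ligase tied to the CCR4-NOT deadenylase, and its 213-base exon varied more, at 0.82, 0.514 and 1 against 0.149, 0.421 and 0.347. It passed (limma adjusted p = 0.0197), but not without fasted Lpin1-/- position 1 or fasted wild type position 3 (limma adjusted p = 0.0765 to 0.0872), nor with precision weights (adjusted p = 0.0542, limma).

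Other large losses lay at exons outside annotated coding sequence. Slc27a2, an acyl-CoA synthetase for very long fatty acids, included a 132-base exon of a non-coding transcript at 0.81, 1 and 0.933 in fasted wild type and 0.38, 0.386 and 0.53 in fasted Lpin1-/- liver (limma adjusted p = 0.0027). This event had 25 to 285 reads a library, few for a gene at 393 to 1334.4 RPKM. A 42-base unannotated exon of Orm1, the acute-phase protein orosomucoid 1, went from 0.974 ± 0.0442 (SD, n = 3) to 0.216 ± 0.0752 (limma adjusted p = 0.000108). Its event had 11 to 236 reads a library, few for a gene at 518 to 4010.3 RPKM. Orm1 has near-identical neighbours (Orm2 and Orm3), so the assignment of its reads is uncertain, and a second event of the same exon did not pass (0.558 ± 0.12 against 0.455 ± 0.157, limma adjusted p = 0.568). Hexdc, a hexosaminidase, went from 0.852 ± 0.0851 to 0.419 ± 0.0551 at a 45-base unannotated exon (limma adjusted p = 0.00289). The junction that skips the exon is not annotated in these altered events of Slc27a2, Orm1 and Hexdc.

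**Figure D3:**
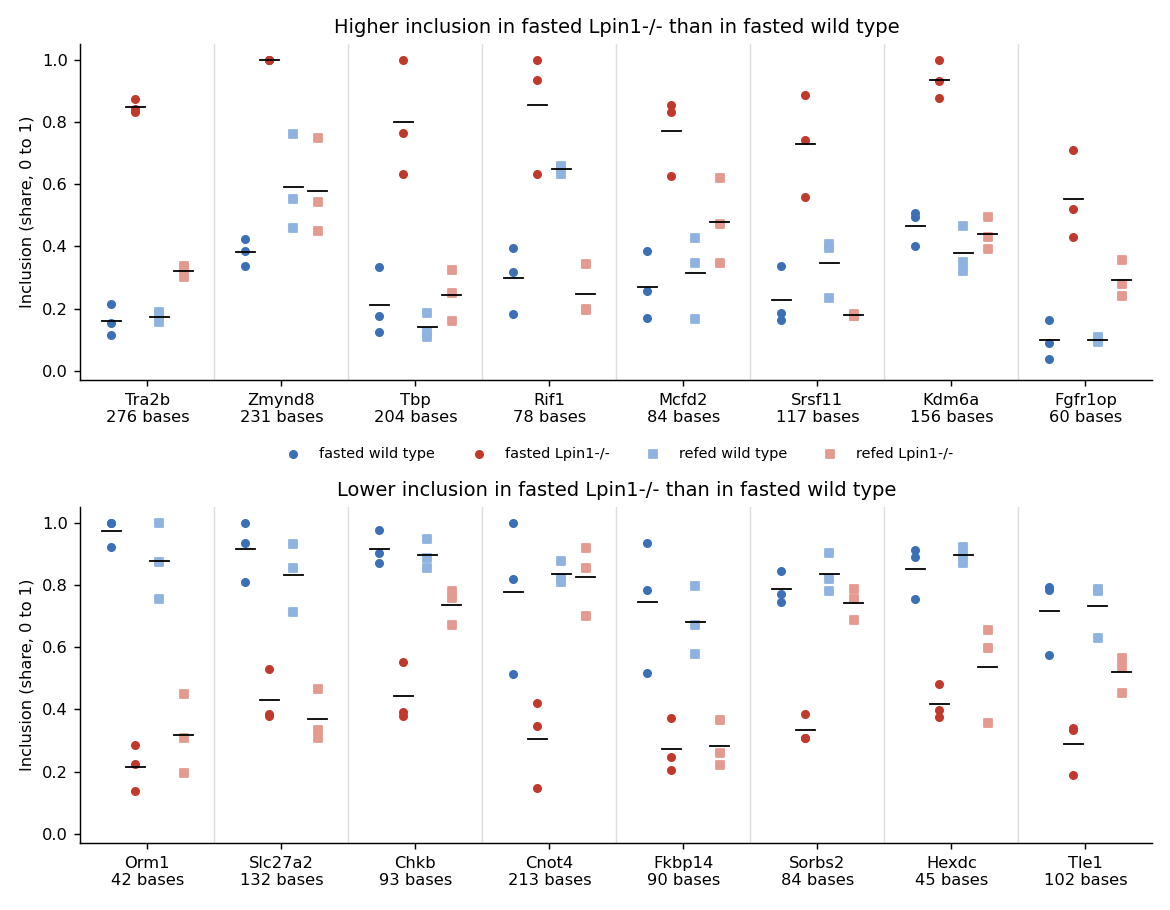
Inclusion (share, vertical axis) of the 8 members with the largest gains (top) and the 8 with the largest losses (bottom) in fasted Lpin1-/- against fasted wild type liver, taking for each gene the altered event with the most reads of its rarer form, which passes over larger changes at Baiap2, Chka and Kansl1, 1 point per library, 3 libraries a group, bars at group means. In each of the 16 exons the points of fasted wild type and fasted Lpin1-/- liver do not overlap, and Tra2b rises from 0.162 to 0.849 in mean inclusion.

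Refeeding was tested in Lpin1-/- liver as the second comparison. It shares the fasted Lpin1-/- libraries with the first, so the values are given side by side and no agreement between the 2 is counted. Refeeding altered 109 of 1264 members (8.62%), 44 higher and 65 lower, against 7.8% of all events, 5.31% higher and 2.5% lower (limma, same adjustment). At an unadjusted p under 0.05, 297 of 1264 members passed, beside 6388 of all 28447 events. The median difference was 0.314 among the 44 and -0.328 among the 65. The count was 40 without the refed Lpin1-/- library in list position 2, 58 without position 3, and 65 and 69 without the fasted Lpin1-/- libraries in positions 1 and 2. It reached 243 with the quasi-binomial fit and 201 with precision weights. Over all events, 11.7% and 15.1% passed in these fits. Without the libraries named, 3.79%, 4.74%, 4.1% and 4.83% of all events passed, in the same order.

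Rbm7 and Kdm6a also fell with refeeding, Rbm7 to 0.256, 0.195 and 0.224 and Kdm6a to 0.393, 0.431 and 0.493 (limma adjusted p = 0.00236 and 0.00134). Zmynd8 fell to 0.448, 0.542 and 0.747 (limma adjusted p = 0.00911, or 0.138 with precision weights). Under the same choice of 1 event per gene, the exons that fell most with refeeding were those of Rif1, Tbp, Srsf11, Tra2b, Rdh13, Fbxo34, Ythdf3 and Ccdc17. The 105-base Baiap2 exon, named after its values were seen, fell further, to 0.196, 0.0909 and 0.143 (log2 ratio -4.35 ± 0.60 SE, limma adjusted p = 0.00098). In refed Lpin1-/- liver the Rif1 exon lay at 0.2, 0.344 and 0.195, below every fasted Lpin1-/- library (log2 ratio -4.79 ± 0.86 SE, limma adjusted p = 0.00441). It also lay below every refed wild type library, at 0.656, 0.658 and 0.632, whereas in the fasted state Lpin1-/- liver was the higher. The Tra2b poison exon came down to 0.33, 0.302 and 0.336 (log2 ratio -3.54 ± 0.45 SE, limma adjusted p = 0.000845), and refed wild type libraries lay lower still at 0.156, 0.189 and 0.179. Srsf11 reached 0.183, 0.177 and 0.177, a tight set, beside 0.394, 0.407 and 0.235 in refed wild type liver (log2 ratio -3.76 ± 0.64 SE, limma adjusted p = 0.00312). Ythdf3 fell to 0.337, 0.244 and 0.198 (limma adjusted p = 0.00338) and the Tbp 5′ UTR exon to 0.323, 0.159 and 0.249 (limma adjusted p = 0.0118, or 0.0555 without the refed Lpin1-/- library in position 2 and 0.0647 from the 6 libraries alone). A 222-base unannotated exon of Rdh13, a mitochondrial retinol dehydrogenase, went from 0.681 ± 0.0747 (SD, n = 3) to 0.163 ± 0.0995 (limma adjusted p = 0.00236). Fbxo34 went from 0.723 ± 0.0455 to 0.218 ± 0.0382 (limma adjusted p = 0.00278). The 111-base coding exon of Ccdc17 went from 0.799 ± 0.161 to 0.303 ± 0.179 (limma adjusted p = 0.0178, or 0.0824 with precision weights). Ccdc17 had not passed between genotypes in the fasted state (limma adjusted p = 0.328), and its refeeding call was lost without fasted Lpin1-/- position 2 or refed Lpin1-/- position 1 or 2 (limma adjusted p = 0.0576 to 0.0831).

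With 1 event per gene chosen by reads, gains with refeeding were led by Cnot4, Gimap9, Naip2, Pdgfa, Kansl1, Sorbs2, Zfp688 and Dph3. A 105-base Chka exon, described with the phospholipid enzymes and named after its values were seen, gained more than any of these, by 0.673 in mean inclusion against 0.519 for Cnot4. Pdgfa, a growth factor of the PDGF family, nearly lost its 69-base exon in fasted Lpin1-/- liver, at 0.0397, 0.12 and 0.0953, and had it at 0.498, 0.71 and 0.475 after refeeding (log2 ratio 3.82 ± 0.56 SE, limma adjusted p = 0.0014). Wild type libraries lay at 0.348, 0.341 and 0.4 in the fasted and 0.48, 0.544 and 0.665 in the refed state, so the refed genotypes overlapped. The 99-base coding exon of Kansl1 went from 0.263, 0.234 and 0.399 to 0.61, 0.881 and 0.797 (log2 ratio 3.03 ± 0.63 SE, limma adjusted p = 0.0101). It did not pass without refed Lpin1-/- position 2 (limma adjusted p = 0.0544). Sorbs2 rose to 0.788, 0.755 and 0.686, within reach of the fasted wild type libraries (log2 ratio 2.48 ± 0.50 SE, limma adjusted p = 0.0085).

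Gimap9, a GTPase of lymphocytes, and Naip2, an inflammasome sensor of macrophages, are genes of immune cells. The lymphocyte markers summed to 2.4 to 7.21 RPKM in fasted and 1.17 to 2.68 RPKM in refed Lpin1-/- liver, and the macrophage markers to 360 to 981 and 114 to 266 RPKM, and their part in these exons was not tested. The 186-base unannotated Gimap9 exon went from 0.213 ± 0.128 (SD, n = 3) to 0.714 ± 0.0502 (limma adjusted p = 0.00421), and the 168-base Naip2 coding exon from 0.397 ± 0.101 to 0.887 ± 0.108 (limma adjusted p = 0.0117). Naip2 belongs to a family of close copies, so its reads may be shared, and it did not pass without fasted Lpin1-/- position 1 or refed Lpin1-/- position 3 (limma adjusted p = 0.0504 to 0.0537). Cnot4 came back to 0.701, 0.855 and 0.918 (limma adjusted p = 0.048), a call lost without fasted Lpin1-/- position 1, 2 or 3, fasted wild type position 1, refed Lpin1-/- position 1, 2 or 3 or refed wild type position 1, 2 or 3 (limma adjusted p = 0.0539 to 0.179). The 114-base coding exon of Zfp688, a zinc finger protein, went from 0.413 ± 0.184 to 0.801 ± 0.099 (limma adjusted p = 0.0249, or 0.0832 from the 6 libraries alone). That call was lost without fasted Lpin1-/- position 1 or 2 or refed Lpin1-/- position 2 or 3 (limma adjusted p = 0.0633 to 0.111). An unannotated 186-base exon of Dph3, an enzyme of diphthamide synthesis, went from 0.245 ± 0.0605 to 0.617 ± 0.116 (limma adjusted p = 0.0177, or 0.0545 from the 6 libraries alone). It was lost without fasted Lpin1-/- position 1 or refed Lpin1-/- position 2 or 3 (limma adjusted p = 0.056 to 0.0794).

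After refeeding, the exons altered in fasted Lpin1-/- liver lay at varied levels. The 83 events higher in fasted Lpin1-/- liver had median inclusions of 0.253 in fasted wild type, 0.668 in fasted Lpin1-/-, 0.259 in refed wild type and 0.296 in refed Lpin1-/- liver. The 88 lower events had medians of 0.693, 0.314, 0.736 and 0.541 in the same order. These events were picked for the difference between the fasted groups, so a gap between the fasted medians is built in. Part of the distance from fasted to refed Lpin1-/- medians may be built in as well, since the choice used the fasted libraries. Fkbp14 and Slc27a2 lay low, at 0.261, 0.367 and 0.223 and 0.335, 0.465 and 0.307 in refed Lpin1-/- liver, with limma adjusted p of 0.966 and 0.812 for refeeding. Orm1, at 0.195, 0.45 and 0.307, and Hexdc, at 0.358, 0.656 and 0.598, likewise did not pass for refeeding (limma adjusted p = 0.559 and 0.538). Tle1 and Chkb lay between the fasted Lpin1-/- and the wild type libraries, and Fgfr1op lay at 0.356, 0.279 and 0.242, above every wild type library.

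**Figure D4:**
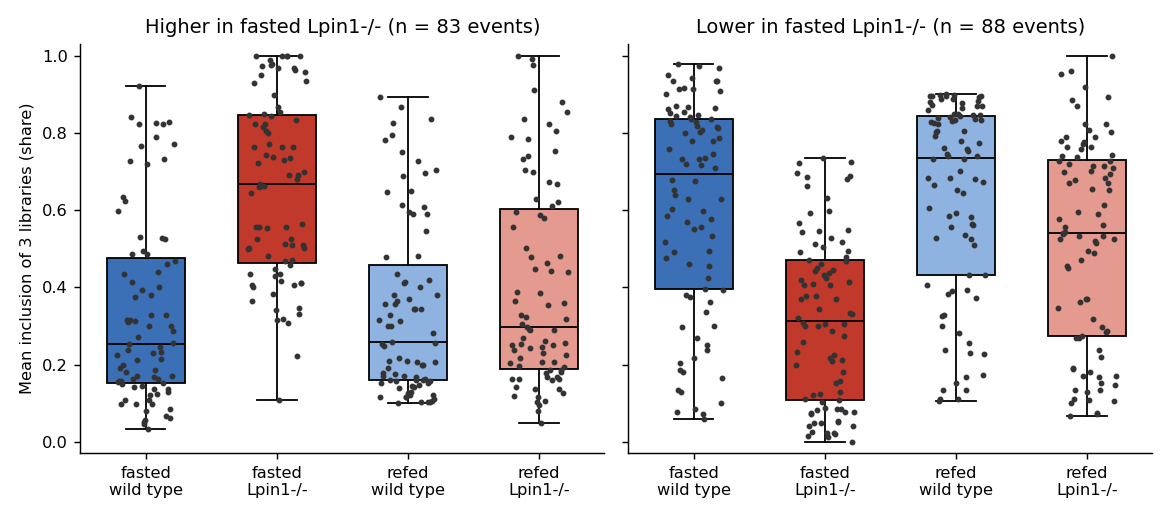
Mean inclusion (share, vertical axis) in each of the 4 groups for the 83 members higher (left) and the 88 lower (right) in fasted Lpin1-/- than in fasted wild type liver, 1 point per event, with boxes from the lower to the upper quartile, a line at the median and whiskers to the last value within 1.5 box lengths. Medians in refed Lpin1-/- liver are 0.296 on the left and 0.541 on the right.

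Refed wild type liver supplied the value that chose the members, so its contrasts are given as a description. Between refed Lpin1-/- and refed wild type liver, the libraries of the groups did not overlap in 126 members that were higher in Lpin1-/- (9.97%) and 232 that were lower (18.4%), beside 5.64% and 11.2% of all events. The median difference over the members was -0.0158. Between refed and fasted wild type liver, 151 members (11.9%) were higher and 75 (5.93%) lower without overlap, beside 4.47% and 2.97% of all events, with a median difference of 0.0118. Gpbp1, a transcription factor, illustrates a refed contrast: its 60-base coding exon lay at 0.626, 0.593 and 0.585 in refed wild type and 0.408, 0.375 and 0.375 in refed Lpin1-/- liver. The fasted values were 0.444, 0.513 and 0.507 and 0.562, 0.644 and 0.604, with the genotypes in the opposite order. Its fasted difference did not pass (limma adjusted p = 0.318, or 0.00916 in the quasi-binomial fit), nor did that of refeeding in Lpin1-/- liver (limma adjusted p = 0.087, or 0.000124 in the quasi-binomial fit).

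By the role of the host gene, RNA-binding and splicing factors carried 51 members in 42 genes. A gene may stand in more than 1 of the role lists that follow. In fasted Lpin1-/- liver, 11 of the 51 rose and 4 fell (29.4%, against 16.4% of all events), with a median difference of 0.105 beside 0.00898 over all members. With refeeding of Lpin1-/- mice, 1 rose and 9 fell (19.6%, against 7.8%), with a median of -0.0778. The altered events lay in 13 genes between fasted genotypes and in 9 with refeeding. Overlapping exons of Tra2b and of Luc7l2 with the same skipping reads were counted separately between fasted genotypes, and those of Tra2b with refeeding as well. They are not separate observations. Besides Tra2b, Srsf11 and Rbm7, the risers included Puf60, a splicing factor that helps to recognise the 3′ splice site. Its 51-base coding exon went from 0.427, 0.402 and 0.417 to 0.665, 0.617 and 0.705 (log2 ratio 1.47 ± 0.44 SE, limma adjusted p = 0.0336). This did not pass when any 1 of the 6 fasted libraries was left out, with adjusted p up to 0.0845, but was 0.000213 in the quasi-binomial fit. Others, named after their values were seen, were the 36-base exon of Mbnl1, a muscleblind splicing factor, from 0.0991 ± 0.0198 (SD, n = 3) to 0.319 ± 0.0679 (limma adjusted p = 0.0245, or 0.0802 with precision weights and 0.0769 in the quasi-binomial fit), and a 222-base decay exon of Rbm4b, from 0.0557 ± 0.024 to 0.34 ± 0.0406 (limma adjusted p = 0.000915). The Mbnl1 call was lost without fasted Lpin1-/- position 1 or 3 or fasted wild type position 1 or 2 (limma adjusted p = 0.0506 to 0.0719), and a second event of the same exon did not pass (0.178 ± 0.0844 against 0.3 ± 0.162, limma adjusted p = 0.392). Among the losses was Ptbp1, the polypyrimidine tract repressor, whose 78-base coding exon went from 0.605, 0.516 and 0.631 to 0.253, 0.364 and 0.347 (limma adjusted p = 0.0283), and not without fasted Lpin1-/- position 1 or fasted wild type position 1 or 3 (limma adjusted p = 0.0804 to 0.0984).

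The most deeply read members of this group belonged to hnRNPs. The 141-base coding exon of Hnrnpab, with 1611 to 3927 reads a library, lay at 0.409, 0.362 and 0.389 in fasted wild type and 0.237, 0.233 and 0.252 in fasted Lpin1-/- liver. Refed values were 0.483, 0.484 and 0.476 and 0.319, 0.373 and 0.326. The spread within each group was small and the groups did not overlap, yet the planned test, which gives shallow and deep events like weight, left it at an adjusted p of 0.124 (limma). It was 0.00026 with precision weights and 1.26e-05 in the quasi-binomial fit. Hnrnpa2b1, with 1575 to 4458 reads, had its 120-base coding exon at 0.605, 0.563 and 0.6 against 0.405, 0.49 and 0.475 (limma adjusted p = 0.268, or 0.0236 with precision weights). The weight given to read depth thus decided the call of both exons.

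Phospholipid synthesis enzymes carried 9 members in 3 genes, Chka, Chkb and Lpin1. In fasted Lpin1-/- liver 4 rose and 2 fell (66.7%, against 16.4% of all events), and with refeeding 1 rose and 3 fell (44.4%, against 7.8%). Of the 9 members 7 are Chka events, and 3 of the 4 that rose are Chka events with the same skipping reads, so they are not separate observations. The events altered by refeeding all lay in 1 gene, Chka, and the 3 that fell are those same 3 events. Chka and Chkb encode the choline kinases that open phosphatidylcholine synthesis. The 54-base coding exon of Chka was kept at 0.585, 0.413 and 0.487 in fasted wild type and 0.92, 0.956 and 0.814 in fasted Lpin1-/- liver (log2 ratio 3.32 ± 0.60 SE, limma adjusted p = 0.00187). After refeeding it stood at 0.71, 0.528 and 0.65 in Lpin1-/- and 0.334, 0.497 and 0.412 in wild type liver (limma adjusted p = 0.0198 for refeeding in Lpin1-/-, or 0.0793 from the 6 libraries alone). The refeeding call was lost without fasted Lpin1-/- position 1 or 2 or refed Lpin1-/- position 2 or 3 (limma adjusted p = 0.0523 to 0.0876). The 123-base poison exon described above lies downstream and has an alternative 111-base coding version, which starts 12 bases further on, right after the stop codon, and went from 0.0466 ± 0.0229 (SD, n = 3) to 0.43 ± 0.25 (limma adjusted p = 0.00373). A 105-base unannotated Chka exon upstream of the 54-base exon went the other way, from 1, 0.654 and 0.855 to 0.0914, 0.1 and 0.115 (limma adjusted p = 0.00119), and came back to 0.754, 0.817 and 0.753 with refeeding (limma adjusted p = 0.0068). The same 105-base exon stands in 2 further events that did not pass between fasted genotypes, from 0.153 ± 0.112 to 0.239 ± 0.0553 and from 0.739 ± 0.236 to 0.511 ± 0.18 (limma adjusted p = 0.306 and 0.213). The exon was thus called in 1 of its 3 events. These 3 altered Chka events were named after their values were seen. Chkb had a 93-base unannotated exon at 0.977, 0.903 and 0.869 in fasted wild type and 0.38, 0.392 and 0.554 in fasted Lpin1-/- liver (log2 ratio -3.90 ± 0.63 SE, limma adjusted p = 0.000937), and at 0.758, 0.782 and 0.671 in refed Lpin1-/- liver. The junction that skips the Chkb exon is not annotated.

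Lpin1 itself contributed a 144-base 5′ UTR exon (chr12:16584508-16584651, minus strand). Its inclusion was 0.426, 1 and 0.445 in fasted and 0.571, 0.676 and 0.692 in refed wild type liver. In Lpin1-/- liver, 0 of 1313 fasted reads and 0 of 882 refed reads skipped it, which allow skipping shares of up to 0.228% and 0.34% from counting error alone (limma adjusted p = 0.000496 between fasted genotypes). The fasted wild type library in position 2 had 26 reads and no skipping read either, so the groups overlapped. These reads contrast with the Lpin1 RPKM near 0 in the same group, a difference between the tables whose source was not tested.

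Genes that the study names as targets of ESRP2, an epithelial splicing regulator, were picked on these samples and are no independent evidence of a direction. They held 16 members in 10 genes. None rose and 6 fell in fasted Lpin1-/- liver (37.5%, against 16.4% of all events). Of these 6, 4 were events of Epb41 with the same skipping reads. With refeeding 3 rose and none fell (18.8%, against 7.8%). The 72-base coding exon of Vegfa, the vascular growth factor, went from 0.513, 0.714 and 0.66 to 0.266, 0.357 and 0.41 (log2 ratio -1.71 ± 0.50 SE, limma adjusted p = 0.0311, or 0.0787 from the 6 libraries alone). That call was lost without fasted Lpin1-/- position 1 or 2 or fasted wild type position 2 or 3 (limma adjusted p = 0.0651 to 0.108). Pdgfa, given above, also stands in this list, from 0.363 ± 0.0321 (SD, n = 3) to 0.085 ± 0.0412 between fasted genotypes (limma adjusted p = 0.00513). In Epb41, the protein 4.1R of the membrane skeleton, the deepest event (63 bases) did not pass (limma adjusted p = 0.91), while a 135-base unannotated exon went from 0.808 ± 0.0617 to 0.445 ± 0.128 (limma adjusted p = 0.0065). Csnk1d, a casein kinase, had 0.794, 0.836 and 0.808 against 0.64, 0.645 and 0.669 (limma adjusted p = 0.0814, or 0.000884 with precision weights), and Zdhhc16, a palmitoyltransferase, 0.458 ± 0.0702 against 0.511 ± 0.08 (limma adjusted p = 0.697).

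Transcription and chromatin genes had 50 members in 31 genes, of which 3 rose and 10 fell in fasted Lpin1-/- liver (26%, against 16.4% of all events). With refeeding 2 rose and 4 fell (12%, against 7.8%). The median difference between fasted genotypes was 0.0135 and so of the opposite sign to most of the calls there. These calls lay in 11 genes, and overlapping exons of Ehmt2 and of Nfya with the same skipping reads were counted separately. Mlx, the dimerisation partner of the glucose-responsive factor ChREBP, had its 90-base coding exon at 0.864, 0.881 and 0.842 in fasted wild type and 0.506, 0.584 and 0.609 in fasted Lpin1-/- liver (log2 ratio -2.25 ± 0.47 SE, limma adjusted p = 0.00462). In refed liver it lay at 0.902, 0.871 and 0.867 and 0.743, 0.822 and 0.769. Crem, a cAMP-responsive factor, gained a 36-base coding exon, from 0.514, 0.531 and 0.544 to 0.818, 0.871 and 0.84 (log2 ratio 2.25 ± 0.46 SE, limma adjusted p = 0.00393). Its 2 other events of the same exon did not pass (limma adjusted p = 0.436 and 0.069). Yap1, the effector of Hippo signalling, had 0.636 ± 0.0559 (SD, n = 3) against 0.579 ± 0.0746 at a 48-base exon and did not pass (limma adjusted p = 0.663). Among the 10 that fell, named after their values were seen, were a 174-base coding exon of Bptf, a nucleosome remodeller, at 0.494, 0.418 and 0.564 against 0.12, 0.104 and 0.109 (limma adjusted p = 0.00137), and an 81-base coding exon of Nfya, a CCAAT-binding subunit, from 0.375 ± 0.0844 to 0.0487 ± 0.0514 (limma adjusted p = 0.00624, or 0.105 with precision weights). The Nfya event had only 10 to 11 reads a library in fasted Lpin1-/- liver, with 3 included reads in all. Ehmt2, the histone methyltransferase G9a, went from 0.719 ± 0.064 to 0.449 ± 0.0756 at a 102-base coding exon (limma adjusted p = 0.0272), a call lost without fasted Lpin1-/- position 1 or 2 or fasted wild type position 2 or 3 (limma adjusted p = 0.0509 to 0.0988).

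Genes of endocytosis, membrane traffic and organelle dynamics had 44 members in 26 genes. Of these 5 were higher and 3 lower in fasted Lpin1-/- liver (18.2%, against 16.4% of all events). With refeeding 1 was higher and 4 lower (11.4%, against 7.8%). The 4 deepest were mixed. Sec16a, which marks the exit sites of the endoplasmic reticulum, lost its 60-base coding exon from 0.502, 0.561 and 0.59 to 0.373, 0.304 and 0.241 (limma adjusted p = 0.0365, or 0.097 from the 6 libraries alone). That call was lost without fasted Lpin1-/- position 2 or 3 or fasted wild type position 1, 2 or 3 (limma adjusted p = 0.0592 to 0.114). Picalm, an adaptor of clathrin assembly (0.413 ± 0.0535 against 0.395 ± 0.0313), and Sec31a, a COPII coat protein (0.166 ± 0.0138 against 0.175 ± 0.0711), did not pass (limma adjusted p = 0.902 and 0.993). Mff, a receptor for mitochondrial fission, had 0.419, 0.39 and 0.366 against 0.438, 0.558 and 0.564 at its 159-base exon, apart but not past the threshold (limma adjusted p = 0.29). Risers, named after their values were seen, were the 33-base exon of Numb, an endocytic adaptor that opposes Notch, from 0.119, 0.161 and 0.0424 to 0.729, 0.494 and 0.447 (limma adjusted p = 0.00131), a 72-base exon of Ktn1, the kinesin receptor kinectin, from 0.237 ± 0.0267 (SD, n = 3) to 0.661 ± 0.0638 (limma adjusted p = 0.00233), and an 81-base exon of Golga2, the Golgi matrix protein GM130, from 0.108 ± 0.0515 to 0.434 ± 0.127 (limma adjusted p = 0.00383).

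Cytoskeleton, adhesion and junction genes had 58 members in 33 genes, 1 higher and 8 lower in fasted Lpin1-/- liver (15.5%, against 16.4% of all events). With refeeding 4 were higher and 1 lower (8.62%, against 7.8%). The altered events between fasted genotypes lay in 6 genes, since 4 of them were the Epb41 events. Mprip, a partner of myosin phosphatase, and Kif21a, a kinesin, did not pass in the planned fit, which does not weigh read depth. Their inclusion went from 0.716 ± 0.0265 to 0.693 ± 0.0487 and from 0.353 ± 0.0532 to 0.264 ± 0.0726 (SD, n = 3, limma adjusted p = 0.861 and 0.455). The list of classic cassette exon genes had 82 members in 45 genes, 6 higher and 6 lower in fasted Lpin1-/- liver (14.6%, against 16.4%). With refeeding 3 were higher and 4 lower (8.54%, against 7.8%). Its deepest members outside the hnRNPs were the 45-base exon of Gnas, the stimulatory G protein, at 0.736, 0.726 and 0.731 against 0.794, 0.765 and 0.759 (limma adjusted p = 0.673), and the 60-base exon of Eif4h, a translation initiation factor, at 0.595 ± 0.0476 against 0.707 ± 0.0324 (limma adjusted p = 0.31, or 0.0292 with precision weights).

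Kinase, phosphatase and signalling genes had 34 members in 30 genes, 3 higher and 3 lower in fasted Lpin1-/- liver (17.6%, against 16.4% of all events). With refeeding 1 was higher and 2 lower (8.82%, against 7.8%). Arhgef1, a guanine nucleotide exchange factor, raised its 168-base coding exon from 0.174, 0.162 and 0.12 to 0.53, 0.366 and 0.326 (limma adjusted p = 0.0174), and refed Lpin1-/- libraries lay at 0.189, 0.133 and 0.186. The call was lost without fasted Lpin1-/- position 1 or fasted wild type position 3 (limma adjusted p = 0.0679 to 0.0699). Csnk1a1, a casein kinase, had 0.146 ± 0.0101 (SD, n = 3) against 0.267 ± 0.0351 at an 84-base coding exon and did not pass (limma adjusted p = 0.103, or 0.00137 with precision weights). Named after its values were seen, a 69-base exon of Camk2g, a calcium-dependent kinase, went from 0.243, 0.271 and 0.245 to 0.547, 0.799 and 0.658 (limma adjusted p = 0.00515).

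Metabolic enzymes and lipid-handling genes had few alternative exons that keep the frame, 22 members in 14 genes. Of these 2 rose in fasted Lpin1-/- liver and 2 fell with refeeding (9.09% in each, against 16.4% and 7.8% of all events). The 4 deepest, with up to 12009 reads a library, did not pass. The planned fit gives shallow and deep events like weight, so this depth did not help small differences to pass. Scarb1, the HDL receptor, kept its 129-base exon at 0.698 ± 0.0269 (SD, n = 3) against 0.706 ± 0.0173, and Apob, the core protein of VLDL, kept a 99-base unannotated exon at 0.848 ± 0.0308 against 0.873 ± 0.0109 (limma adjusted p = 0.957 and 0.739). Haao and Kynu, enzymes of tryptophan breakdown, had 0.921, 0.862 and 0.897 against 0.828, 0.799 and 0.819 and 0.874, 0.84 and 0.868 against 0.833, 0.799 and 0.803. Both pairs of groups were apart by a small margin (limma adjusted p = 0.2 and 0.481, or 0.0133 and 0.0171 with precision weights). A list of 6 genes from 1 RT-PCR panel of the study held 3 members, in Hnrnpa2b1, Puf60 and Gpbp1, all given above.

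Coding exons had 34 events higher and 38 lower in fasted Lpin1-/- liver, of 577 (12.5%, against 16.4% of all events). The share altered was 15.2% of 400 events at unannotated exons, 11.3% of 106 at 5′ UTR exons and 17.4% of 69 at decay-only exons. With refeeding of Lpin1-/- mice the shares were 9.19%, 8.75%, 4.72% and 8.7% in the same order, against 7.8% of all events. Exons of 60 bases or fewer rose in 20 and fell in 12 of 220 events in fasted Lpin1-/- liver, and those of more than 150 bases in 16 and 19 of 327. Among coding exons, those that begin at a codon boundary were altered in 12.9% of 248 events, those with 1 base to come in 9.09% of 88 and those with 2 bases to come in 13.3% of 241. The differences between these shares were not tested. Of 145 genes with an altered event, 19 had more than 1, and in 17 of the 19 the altered events went in the same direction. In 15 of the 19 genes altered events have equal skipping counts in all 12 libraries, so a shared direction is partly built in.

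Base composition is given as a description, because the sets were formed by the change itself. Exon sequence was available for 800 of the 1170 exons, and an exon with several events could stand in more than 1 set. Median GC content was 45.7% (quartiles 41% and 51.7%) in 56 exons higher in fasted Lpin1-/- liver, 51.4% (46.2% and 57.9%) in 51 lower exons and 50.6% in 701 exons that did not pass. Over all exons of these sets, with or without sequence, median lengths were 99, 99 and 108 bases. The letters GGTGG, searched on the transcribed strand of the exon alone, were present in 3 of the 56 higher (5.36%) and 11 of the 51 lower exons (21.6%), beside 15.4% of 14125 annotated exons of 28 to 300 bases. Of the 5 other strings counted, GAAGAA was in 12.5% of higher and 9.8% of lower exons (11.5% of all), GCATG in 14.3% and 11.8% (11%), TCTTC in 10.7% and 15.7% (16.9%), TGTGT in 12.5% and 15.7% (13.7%) and CTGCTG in 3.57% and 7.84% (10.6%). A string is not a binding site, and the introns beside the exons were not searched.

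Alternative exons that shift the frame, chosen by the same limits, offered the closest comparison. Of 1573 such events, 14.8% were altered in fasted Lpin1-/- liver, 8.07% higher and 6.74% lower, close to the 13.5% of the frame-keeping members. With refeeding of Lpin1-/- mice the shares were 8.33% and 8.62%. The median absolute differences between fasted genotypes were 0.0767 and 0.0773. Exons that keep the frame and were mostly included in refed wild type liver (6997 events, mean inclusion above 0.9) moved in 1 direction. In fasted Lpin1-/- liver 14.4% were lower and 0.272% higher, and with refeeding 0.243% were lower and 5.67% higher. Such exons have little room to rise, and the differences between the 3 sets were not tested.

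**Figure D5:**
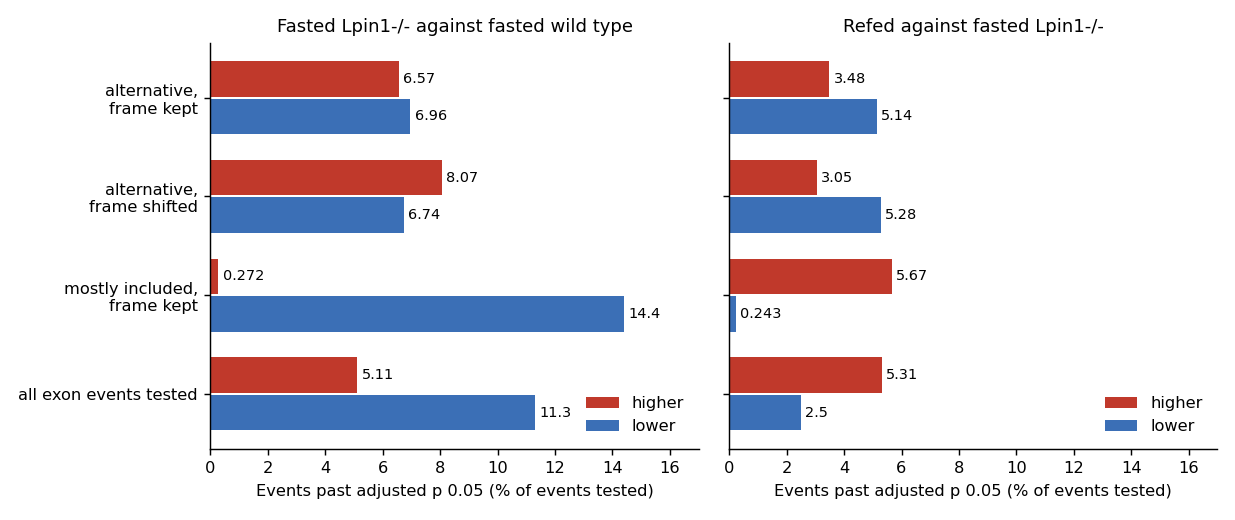
Share of events past an adjusted p of 0.05 (% of events tested, horizontal axis), higher in red and lower in blue, for the alternative exons that keep the frame, alternative exons that shift it, mostly included exons that keep it and all exon events. Frame-keeping alternative exons are split nearly evenly in fasted Lpin1-/- liver, 6.57% higher and 6.96% lower, whereas all events have 5.11% and 11.3%.

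Levels of the host genes were read from a separate table, although the minimum of 10 reads an event favours genes with enough reads in every group. Of the 903 host genes, 861 were tested in RPKM among 11507 genes (limma on log2(RPKM + 1)). Between fasted genotypes 156 host genes (18.1%) were altered, 45 higher and 111 lower in Lpin1-/- liver, against 18.8% of all genes, 5.63% higher and 13.2% lower. With refeeding of Lpin1-/- mice 160 (18.6%) were altered, 143 higher and 17 lower, against 20.7% of all genes, 17.8% higher and 2.92% lower. Host genes thus changed about as often as other genes. Median log2 differences were -0.21 and 0.36 for the host genes, beside -0.14 and 0.25 for all genes. After rescaling by the median ratio, the host genes split into 74 higher and 94 lower between fasted genotypes and 78 higher and 39 lower with refeeding. Of 140 tested host genes with an exon altered between fasted genotypes, 29 (20.7%) were themselves altered in RPKM, and of 89 with an exon altered by refeeding, 21 (23.6%) were. The genotype effect on RPKM differed between the fasted and the refed state in 7 host genes (0.813%), against 1.28% of all genes (limma interaction term). Without the fasted wild type library numbered 3 the 156 became 78, and without the refed Lpin1-/- library numbered 2 the 160 became 82, the lowest counts with 1 library left out. The interaction count of 7 ranged from 1 to 12 with 1 library left out, and was 4 with the replicate number as a block.

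Levels of the genes with poison exons are given beside their inclusion. The Tra2b level was 12.6, 11.1 and 13 RPKM in fasted wild type and 24.2, 18.2 and 19.6 RPKM in fasted Lpin1-/- liver (log2 difference 0.7 ± 0.17 SE, limma adjusted p = 0.0153), and 14.4, 12.4 and 11.7 RPKM in refed Lpin1-/- liver. RPKM counts reads of every transcript of a gene, so it does not separate the form with the poison exon from the form that encodes the protein. Srsf11 had 11.6 ± 3.17 RPKM (SD, n = 3) in fasted wild type and 15.6 ± 3.12 RPKM in fasted Lpin1-/- liver (limma adjusted p = 0.193), and Rbm7 had 41.9 ± 8.51 and 55 ± 11.3 RPKM (limma adjusted p = 0.244). Chka had 11.8 ± 3.77 and 26.9 ± 8.15 RPKM (limma adjusted p = 0.0171). Parp16 rose from 9.02 ± 2.21 to 35.5 ± 12.7 RPKM and lay at 9.46 ± 3.16 RPKM in refed Lpin1-/- liver (limma adjusted p = 0.00705 between fasted genotypes and 0.00757 for refeeding). The genes of the 2 poison exons that fell did not pass. Fkbp14 had 1.79 ± 0.243 and 2.22 ± 0.454 RPKM, and Trnau1ap 28.7 ± 9.43 and 30.8 ± 11.7 RPKM (limma adjusted p = 0.433 and 0.873). Hnrnpdl, whose decay-only exon without the stop codon fell, rose from 17.3 ± 0.901 to 46 ± 6.46 RPKM (limma adjusted p = 0.00133).

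Among 37 regulators of cassette exons, 34 were tested in RPKM, and between fasted genotypes 4 were higher and 4 lower in Lpin1-/- liver (23.5%, against 18.8% of all genes), with a median log2 difference of -0.26 beside -0.14 over all genes. With refeeding of Lpin1-/- mice 16 were higher and 2 lower (52.9%, against 20.7%), with a median of 0.88 beside 0.25. These regulator counts are given without rescaling by the median ratio. That rescaling took the host genes from 143 higher and 17 lower to 78 and 39 with refeeding. Tra2a, the paralog of Tra2b, was at 5.64, 3.62 and 4.98 RPKM in fasted wild type and 11.1, 10 and 8.39 RPKM in fasted Lpin1-/- liver (log2 difference 0.92 ± 0.2 SE, limma adjusted p = 0.00934). Srsf5, an SR protein, was at 89, 62.9 and 53.4 against 120, 139 and 139 RPKM (limma adjusted p = 0.0153). Rbm10, a repressor of many cassette exons, was lower, at 5.89, 3.64 and 4.62 against 2.01, 2.38 and 2.59 RPKM (log2 difference -0.77 ± 0.2 SE, limma adjusted p = 0.0198). Esrp2 fell from 28.1, 15 and 20.6 to 7.69, 11.1 and 11.5 RPKM between fasted genotypes (log2 difference -0.98 ± 0.27 SE, limma adjusted p = 0.0276), and stood at 35.5, 26.4 and 26.2 RPKM in refed Lpin1-/- liver (limma adjusted p = 0.00459 for refeeding). Which regulator acts on which exon was not tested.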

How the data were processed

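RNA-Seq libraries were made from liver of 12 mice with a stranded kit. The authors aligned reads with HISAT2 2.0.5 to GRCm38 and counted them per gene with HTSeq 0.6.0, and the deposited RPKM values per library come from them. For splicing, the deposited rMATS tables hold inclusion and skipping counts as lists of 3 per group, with the length of each form. P-values, FDRs and inclusion differences in them are the authors' own comparisons and were not used. Whether counting used strand is not given in the sources used here.

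Events with equal coordinates in the fasted and refed tables were joined. The log2 ratio of length-normalized counts (0.5 added to each) was fitted with limma 3.58.1 (trend, R 4.3.3) over all 12 libraries and 28447 events with at least 10 counts in each library. Genes averaging 0.5 RPKM or more were fitted on the scale of log2(RPKM + 1), which understates fold changes of low genes. P-values were Benjamini-Hochberg adjusted at 0.05. The planned edgeR fit was not run, because the deposited counts come as joined lists and not as count columns. A quasi-binomial fit with limma's variance moderation took its place. The fits were tested on simulated data. The fit of events missed the smallest change simulated, so exons that did not pass may still differ. Exons were classed by GENCODE M21 of the same build.

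Members, gene lists and tests were chosen with earlier results of these data known. Named exons are, for each tested comparison and direction, the 8 with the largest difference among those past the threshold, without overlap and with a mean of at least 5 reads of the rarer form (per gene only its event with most reads in the smaller of the 2 counts, none with Gm or Rik symbols), and for each role list up to 4 with the most reads of the rarer form. Lpin1, the members at the bounds and, of the regulators, the 4 with the smallest p and Esrp2 are also named. Exons said to be named after their values were seen, and the 234-base Tra2b and 135-base Epb41 exons, fall outside the rule. Some items that the rule names are not reported here. Replicates are biological by the labels. In the 2 tested comparisons replicate numbers did not pair the RPKM columns (correlation of deviations -0.474 to -0.204), so no block was used. Over all pairs of groups it reached 0.743, and was above 0.1 at every number for refed Lpin1-/- with either wild type group. Upper limits for a count of 0 take 3 counts and cover counting error only, since reads are not independent molecules.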

Additional observations from a re-analysis of the deposited data

Results flagged for a closer look

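In 7 host genes the effect of genotype on RPKM differed between the fasted and the refed state (interaction term, limma on log2(RPKM + 1), adjusted over all genes). The difference, fasted effect minus refed effect on the log2 scale, was -1.75 for Gk, which encodes glycerol kinase (adjusted p = 0.00664). Its RPKM was 40.6, 31.3 and 36.2 in fasted wild type and 10.1, 9.24 and 11.1 in fasted Lpin1-/- liver, against 20.3 to 23.8 in refed liver of both genotypes.

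It was 1.88 for 2410002F23Rik (adjusted p = 0.0136), the 1 gene with a positive difference, whose RPKM was 3.41 to 3.57 in fasted wild type and 9.96 to 11.2 in fasted Lpin1-/- liver. For Hsf2, a heat shock factor, it was -1.83 (adjusted p = 0.0157). Mpv17l had -1.49 (adjusted p = 0.0325), and here the genotypes differed in the refed state, at 5.22 to 6.71 RPKM in wild type and 13.8 to 14.6 RPKM in Lpin1-/- liver. Uty, a demethylase gene of the Y chromosome, had -1.37 (adjusted p = 0.0338), Gfod2 had -1.49 (adjusted p = 0.0338) and Tec, a tyrosine kinase, had -1.25 (adjusted p = 0.0485). These p-values are from limma with 3 libraries a group, and the count of 7 fell to 1 without the refed Lpin1-/- library numbered 2 or 3 and to 4 with the replicate number as a block.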

How the results depend on the processing

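The 171 members altered between fasted genotypes became 106 with at least 50 counts in every library, 106 with no count minimum, 275 with the quasi-binomial fit and 91 with refed wild type inclusion of 0.2 to 0.8, and 98 to 162 with 1 library left out. Over all events, 18.7%, 12.9%, 18.1% and 16.4% passed at the first 4 of these settings. The higher count minimum and the narrower inclusion range also leave fewer members to count. The 109 altered by refeeding of Lpin1-/- mice became 66, 63, 243 and 59 under the same 4 settings, 201 with precision weights, 165 with a mean of at least 5 reads of the rarer form, 42 from the 6 libraries compared, and 40 to 105 with 1 library left out. Over all events, 8.21%, 5.85%, 11.7% and 7.8% passed for refeeding at the 4 settings. These shares were 15.1% with precision weights, 15.5% with the minimum for the rarer form and 3.72% from the 6 libraries. Between fasted genotypes, 231, 246 and 115 members passed at these settings, in the same order, and 18.4%, 31.7% and 13.4% of all events. Host genes altered between fasted genotypes were 75 from the 6 libraries alone, where 8.79% of all genes passed. They were 78 to 184 with 1 library left out, and those altered by refeeding 82 to 229. The 7 host genes with an interaction were 4 without a filter, 17 after rescaling by the median ratio and 1 to 12 with 1 library left out. The median difference from refed wild type liver was -0.0219 with inclusion of 0.2 to 0.8, and -0.02 to -0.012 with 1 library left out. Over the named exons and all alternatives, 3239 values kept their side of the threshold and their direction, 76 newly passed, 181 no longer passed and 0 reversed. Of 52 named exons altered between fasted genotypes 36 passed in every alternative, and of 34 altered by refeeding 17. The cause of these changes was not tested. The quasi-binomial fit was added after seeing the data, in place of the planned edgeR fit.

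No paired analysis was possible for the exons because their lists carry no replicate numbers. For host genes, a replicate block gave 130 altered between fasted genotypes, 136 by refeeding and 4 with an interaction.

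Depth limits the precision of shallow exons, with 68 to 188 reads a library at the median member.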
